A study of Caenorhabditis elegans with 6 samples.

Results

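The groundhog (grd) and ground-like (grl) genes of Caenorhabditis elegans encode secreted proteins related to Hedgehog. Their members here were all genes whose symbol is grd or grl with a number, together with hog-1 and qua-1, and the warthog (wrt) genes were left out. The rule found 51 genes, 17 grd, 32 grl, hog-1 and qua-1, among 45343 features of the deposited table. RefSeq annotates 49 of them as protein-coding and grd-17 and grl-32 as pseudogenes. Their messenger RNA was measured in whole larvae, synchronized by bleaching and harvested halfway through the third larval stage. Wild type (WT, strain N2 Bristol) gave 3 libraries and blmp-1(tm548) animals, with a mutant allele of the zinc-finger transcription factor gene blmp-1, gave 3. The labels call them biological replicates and do not say how cultures were kept apart, so the p-values measure the spread between these samples.

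C. elegans has no canonical Hedgehog ligand of the fly and vertebrate kind, and it has no Smoothened. Its hedgehog-related proteins join a family-specific amino-terminal domain (Warthog, Ground, Ground-like or Quahog) to a signal peptide, and some also carry a carboxy-terminal Hog domain, the part by which Hedgehog proteins cleave themselves. Many of these genes are expressed in epidermis, seam or glia-like socket cells, and many cycle with the molts. Patched and the patched-related proteins, membrane proteins with a sterol-sensing domain, are the nearest relatives of the Hedgehog receptor.

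Depth was read from the steps on which low values lie and came to 7440000 to 7970000 reads in the WT libraries and to 7410000 to 7890000 in the mutant ones. At this depth 1 FPKM (a fragment count scaled to transcript length and to the mapped fragments of a library) on 1 kb of exon is 7.41 to 7.97 reads. The blmp-1 transcript was at 64.9 to 75.2 FPKM in WT and 36.9 to 40.3 in the mutant, and the labels do not say which part of the gene the allele removes. All 6 epidermal markers checked were above 0, and their summed level was 814 to 868 FPKM in WT and 909 to 988 in the mutant. Without nlp-29, an antimicrobial peptide gene that rose from a mean of 168 to 318 FPKM (limma adjusted p = 0.0168), the other 5 summed to 647 to 732 and to 599 to 653 FPKM. Of these 5 genes 0 were called. Among them col-19 was at 101, 123 and 33.5 FPKM in WT replicates 1, 2 and 3 and at 51.4, 34.4 and 35.9 in the mutant. The mutant minus WT log2 differences were -0.89 for col-19, -0.15 for dpy-7, -0.04 for rol-6, -0.02 for sqt-3 and 0.79 for bli-1. The 6 yolk protein genes summed to 124 to 532 FPKM in WT and to 72.2 to 156 in the mutant. The WT libraries themselves differed in these genes, and WT replicate 3 was the lowest of them. For example, vit-2 was at 86.0, 122 and 31.5 FPKM in WT replicates 1, 2 and 3 and at 58.3, 26.3 and 47.2 in the mutant. Lists of 8 oocyte and 10 sperm genes varied among the WT libraries too. The oocyte genes summed to 156 to 255 FPKM in WT and 154 to 160 in the mutant. The sperm genes summed to 56.6 to 183 FPKM in WT and 95.7 to 141 in the mutant. The part of such differences in the results below was not tested, and in whole animals fewer cells of a type cannot be told apart from less RNA per cell.

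The members ranged from almost no reads to more than 200 FPKM. In the mean over 6 libraries 13 members reached at least 100 FPKM, 13 lay from 10 to 100, 12 from 1 to 10 and 13 below 1. Each of the 51 was above 0 in some library. The 38 with a mean of at least 1 FPKM entered the test, a filter that also let in genes high in 1 group alone. The most abundant was grd-5 (F41E6.2), with a WT level of 234 ± 5.83 FPKM and a mutant level of 211 ± 19.3 (SD, n = 3 each). Next came grl-4 (F42C5.7) at 197 ± 6.67 and 227 ± 11.8, and grl-16 at 204 ± 7.02 and 186 ± 19.3 FPKM. In FPKM these values lay near those of major muscle and translation transcripts. The muscle myosin gene unc-54 lay between 184 and 205 FPKM over the 6 libraries, and the elongation factor gene eef-1A.1 between 213 and 230. Only 48 of 18971 protein-coding genes with at least 300 nt of exon had a mean above 300 FPKM. Whether values this high are compressed was not tested, and differences of members above 100 FPKM may be understated if they are. A similar FPKM would then not show a similar abundance of transcripts.

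**Figure D1:**
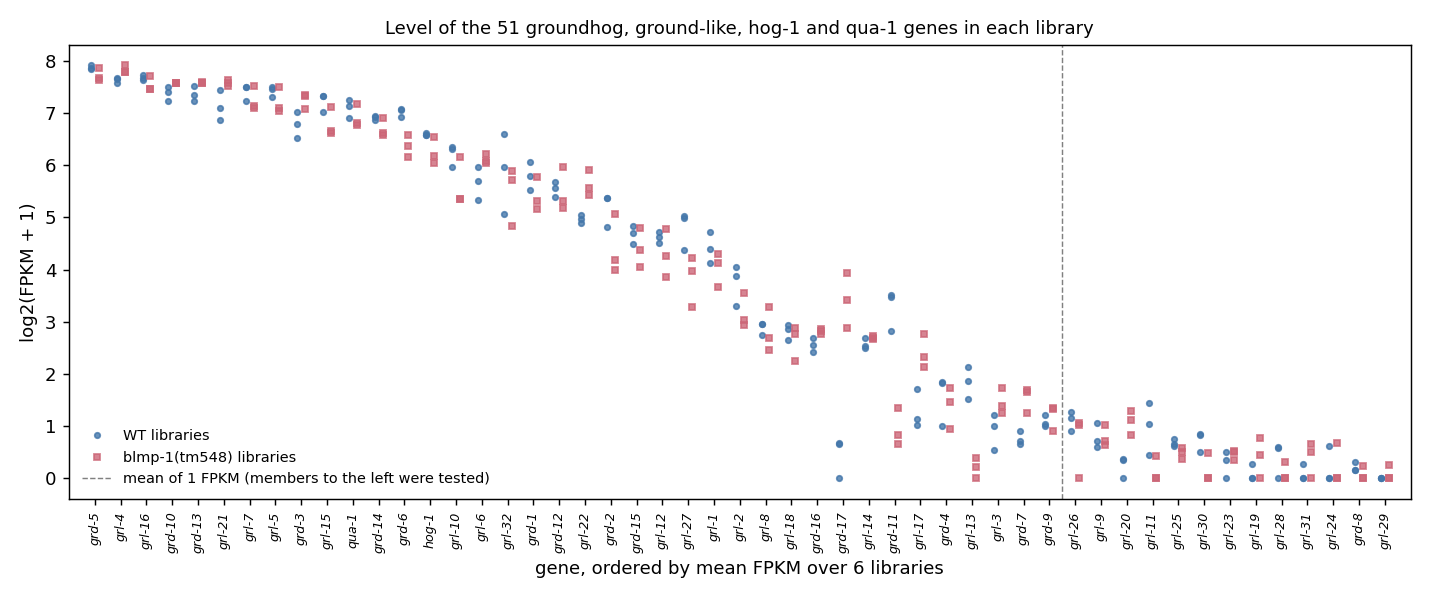
Level of each of the 51 members on the log2(FPKM + 1) scale (y axis), ordered by mean FPKM (x axis), with circles for the WT libraries and squares for the mutant libraries. The dashed line marks a mean of 1 FPKM. The 38 members to its left were tested, and WT and mutant points separate widely at grd-17, grd-11 and grl-13.

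In the mutant, 3 members fell and 2 rose among the 38 tested (limma on log2(FPKM + 1), Benjamini-Hochberg adjusted p under 0.05 over 17058 features). The groundhog genes grd-11 and grd-6 and the ground-like gene grl-13 fell, and grd-17 and the ground-like gene grl-22 rose. Of all tested features 3.06% fell and 3.34% rose, against 7.89% and 5.26% of the tested members, which are 3 and 2 genes. With library quality weights, which let limma count a library that deviates from its group less, 15 members fell and 10 rose, and so did 12.4% and 11.8% of all tested features. The median log2 difference of the 38 members was -0.17, and that of all tested features was 0.00. By family, 2 of 16 tested grd genes fell and 1 rose, and 1 of 20 tested grl genes fell and 1 rose.

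The gene with the largest fall was grd-11 (K02E2.2), one of the groundhog genes that also encode a Hog domain. It was at 6.10, 10.4 and 10.1 FPKM in WT replicates 1, 2 and 3 and at 0.570, 0.784 and 1.56 in mutant replicates 1, 2 and 3. Each mutant library lay far below each WT library. The log2 difference was -2.32 (SE 0.294, limma adjusted p = 0.0107), a 5.0-fold lower level in the mutant on the log2(FPKM + 1) scale. With a pseudocount of 0.1 it was -3.13. From its exon length these values stand for about 152 to 248 reads in WT and 14.1 to 36.1 in the mutant. The call was lost without WT replicate 2 (adjusted p = 0.0545).

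In the WBcel235 annotation, 66 bases of the grd-11 exons (2.11%) overlap those of K02E2.8, a protein-coding gene on the opposite strand. K02E2.8 itself was at 124 to 134 FPKM in WT and 6.93 to 15.3 in the mutant (log2 difference -3.67, adjusted p = 0.00216). At that level the shared 66 bases would hold about 65.0 to 66.6 reads in each WT library and 3.6 to 7.5 in each mutant library. All exons of grd-11 held about 152, 242 and 248 reads in WT replicates 1, 2 and 3. The counting is not stated to use strand, so on the shared bases the reads of both genes cannot be told apart, and the annotation that the authors counted on is not given in the sources used here.

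The ground-like gene grl-13 (F32D1.4) was nearly without reads in the mutant. It was at 3.37, 2.63 and 1.88 FPKM in WT replicates 1, 2 and 3, and at 0.155, 0.310 and 0 in mutant replicates 1, 2 and 3. Its values lay on steps of 1 read, which gave 22, 16 and 12 reads in WT and 1, 2 and 0 in the mutant. The groups did not overlap, and the gene passed the filter through its WT level alone. The log2 difference was -1.64 (SE 0.277, adjusted p = 0.0253), and -3.60 with a pseudocount of 0.1. The call was lost when WT replicate 2 was left out (adjusted p = 0.104), and likewise for mutant replicate 1 (0.0869) and mutant replicate 2 (0.0677). Leaving out WT replicate 1 put the gene below the filter.

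The groundhog gene grd-6 (T18H9.1) fell from a high level. It was at 134, 132 and 121 FPKM in WT replicates 1, 2 and 3 and at 81.6, 70.6 and 94.0 in mutant replicates 1, 2 and 3. The lowest WT library was above the highest mutant library. The difference was 1.57-fold (log2 difference -0.65, SE 0.107, adjusted p = 0.0229). The call was lost when WT replicate 1 was left out (adjusted p = 0.0619), and likewise for WT replicate 2 (0.1002) and mutant replicate 1 (0.0858).

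The largest rise was that of grd-17 (Y102A5C.34), annotated as a pseudogene. It was at 0.576, 0 and 0.587 FPKM in WT replicates 1, 2 and 3 and at 9.61, 6.40 and 14.3 in mutant replicates 1, 2 and 3. Steps gave 2, 0 and 2 reads in WT and 33, 22 and 46 in the mutant, so it was nearly without reads in WT. The gene passed the filter through its mutant level alone. The log2 difference was 2.97 (SE 0.345, adjusted p = 0.00827), and 4.75 with a pseudocount of 0.1. It was called with any single library left out (6 of 6 settings), as none of the other 4 called members was. Its similarity to other genes, which could take or lend reads, was not looked at.

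The ground-like gene grl-22 (W03A5.3) rose from 30.4, 31.8 and 28.8 FPKM in WT replicates 1, 2 and 3 to 46.3, 41.9 and 59.3 in mutant replicates 1, 2 and 3. The WT libraries lay close together and all mutant libraries above them. The log2 difference was 0.66 (SE 0.131, adjusted p = 0.0386), a 1.59-fold rise. It was called in 1 of 6 settings that left out a single library, that without mutant replicate 3 (adjusted p = 0.0277), while the p rose to between 0.0531 (mutant replicate 2 left out) and 0.121 (WT replicate 2 left out) in the others, which left out WT replicate 1 (0.0899), WT replicate 3 (0.0964) or mutant replicate 1 (0.113). Its exons share 78 bases (13.2%) with W03A5.1 on the opposite strand, which was at 1.59 to 2.45 FPKM in WT and 2.64 to 6.91 in the mutant. At that level the shared bases would hold 1.0 to 1.5 of the 134 to 144 reads of grl-22 in WT. In the mutant they would hold 1.5 to 4.3 of its 196 to 261 reads.

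**Figure D2:**
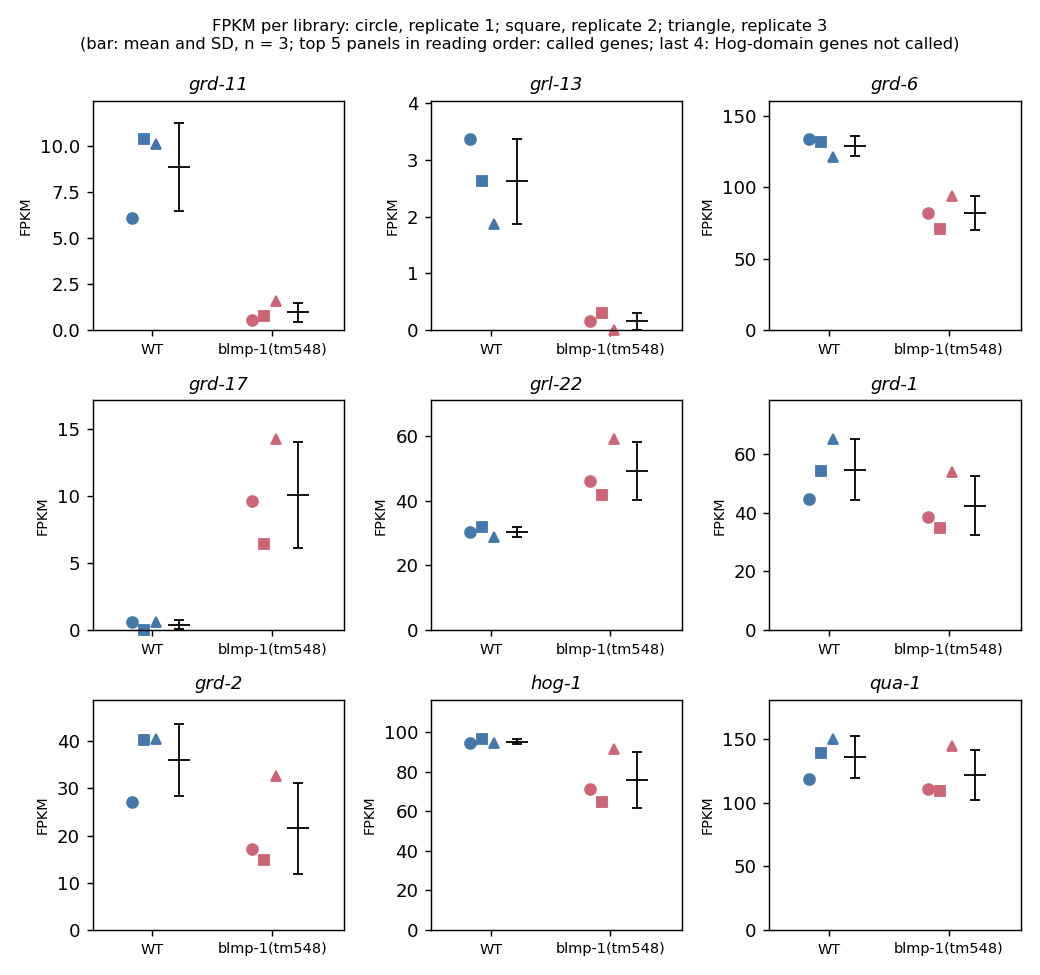
FPKM (y axis, from 0) of 9 members in each library, with WT in blue and blmp-1(tm548) in red, circles, squares and triangles for replicates 1, 2 and 3, and bars for the mean and SD (n = 3). The called genes grd-11, grl-13, grd-6, grd-17 and grl-22 show groups apart. In grd-1, grd-2, hog-1 and qua-1, which were not called, the triangle of mutant replicate 3 stands above the other mutant points.

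The Hog-domain members were all lower on average, and grd-11 alone passed. The others were grd-1 (R08B4.1) and grd-2 (F46B3.5), groundhog genes, hog-1 (W06B11.4), whose product is named for its Hog domain, and qua-1 (T05C12.10), the Quahog gene needed for molting. For hog-1 the WT values were 94.6, 96.9 and 94.5 FPKM and the mutant values 71.5, 64.6 and 91.8 in replicates 1, 2 and 3. Its groups did not overlap, though mutant replicate 3 was close to the WT libraries (log2 difference -0.34, 95% interval -0.64 to -0.04, adjusted p = 0.178). For grd-2 the WT values were 27.2, 40.3 and 40.6 FPKM and the mutant values 17.1, 14.9 and 32.7. Mutant replicate 3 lay among the WT libraries there (log2 difference -0.78, 95% interval -1.54 to -0.01, adjusted p = 0.214). The same library was the highest mutant library for grd-1, at 38.6, 34.8 and 53.9 FPKM in the mutant against 44.8, 54.3 and 65.4 in WT (log2 difference -0.37, adjusted p = 0.329). For qua-1 it was at 144 FPKM against 111 and 109 in the other mutant libraries and 118, 139 and 150 in WT (log2 difference -0.17, 95% interval -0.50 to 0.16, adjusted p = 0.520).

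Mutant replicate 3 stood apart from the other mutant libraries across the family. It was the highest mutant library in 28 of the 38 tested members (73.7%), against 38.3% of all tested features. Mutant replicate 2 was the lowest in 23 (60.5%, against 28.4% of all tested features). The median deviation of the members from the WT mean was -0.21, -0.32 and 0.08 on the log2 scale in mutant replicates 1, 2 and 3, while that of all tested features was between -0.01 and 0.01 in each. The 9 tested warthog genes had medians of -0.69, -0.77 and -0.14, the 30 tested patched-related and sterol-sensing genes -0.26, -0.30 and -0.02, and the 47 tested molting and apical matrix genes -0.11, -0.10 and 0.04. In each of these lists mutant replicate 3 was the mutant library nearest to WT. In WT replicates 1, 2 and 3 the medians were 0.00, 0.03 and -0.00 for the members and -0.19, 0.06 and 0.13 for the warthog genes. They were -0.11, 0.03 and 0.07 for the patched-related genes and -0.07, 0.03 and 0.04 for the molting genes. For the warthog and patched-related genes mutant replicate 3 lay within the WT range. The stage of the larvae in each library is not given beyond the label, and its part was not tested.

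Without mutant replicate 3, 11 members fell and 2 rose, against 4.16% and 3.62% of all tested features. Since that library was the mutant library nearest to WT for these members, leaving it out enlarges their fall, and the counts are a description. Without WT replicate 1, 2 or 3, 1, 0 and 3 members fell, and with mutant replicate 1 or 2 left out 1 and 2 fell. Calls over all tested features also changed with the library left out, and their range is given in the closing section. The 5 genes called with all libraries were among the 13. The others, all lower, were hog-1, grd-2, grd-5, grd-14, grl-5, grl-10, grl-15 and grl-16. Their log2 differences were then from -1.11 (grd-2, adjusted p = 0.0446) and -0.85 (grl-10, adjusted p = 0.0283) to -0.22 (grl-16, adjusted p = 0.0478). The one with the lowest adjusted p was hog-1 (log2 difference -0.48, adjusted p = 0.0168). Over all 3 mutant libraries grl-10 (C26F1.5) was at 61.2, 77.9 and 80.2 FPKM in WT and 39.6, 39.9 and 70.2 in the mutant, so that mutant replicate 3 fell inside the WT range. Its log2 difference was -0.58 (95% interval -1.17 to -0.00, adjusted p = 0.218). The 18 exon bases it shares with the ribosomal protein gene rpl-39 on the opposite strand would hold 88.0 to 91.0 of its 304 to 610 reads at the rpl-39 level (log2 difference of rpl-39 -0.00, adjusted p = 0.981). This estimate may be too high if the FPKM of rpl-39 stands for fewer reads than its length gives, as for grl-32 below.

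**Figure D3:**
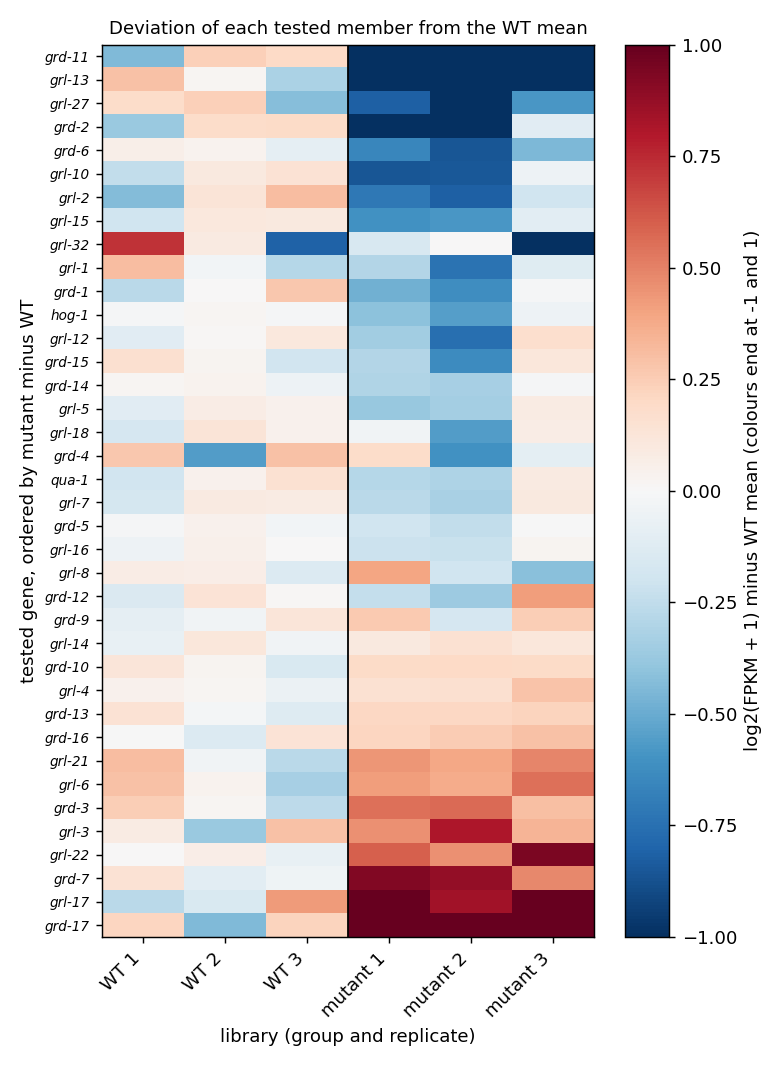
Deviation of each tested member from its WT mean on the log2(FPKM + 1) scale (colour, ending at -1 and 1) in each library (columns), with the 38 genes ordered by mutant minus WT. Mutant replicates 1 and 2 are blue over most of the upper rows. Mutant replicate 3 is paler in most of these rows but also blue at grd-11, grl-13, grl-27 and grd-6. At the bottom, from grd-10 down to grd-17, all mutant libraries are red.

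All mutant libraries lay above all WT libraries in 12 of the 38 tested members (13.7% of all tested features did so), and below them in 5 (15% of all tested features). The 12 were grd-17, grl-17, grd-7, grl-22, grl-3, grd-3, grl-6, grl-21, grd-16, grd-13, grl-4 and grd-10. The 5 below were grd-11, grl-13, grl-27, grd-6 and hog-1. Of the 12, grd-17 and grl-22 passed the test. In grd-17, grd-7 and grl-3 the WT mean was 0.388, 0.702 and 0.929 FPKM, so they passed the filter of 1 FPKM through their mutant level. In grd-11 and grl-13 the mutant mean was 0.970 and 0.155 FPKM, so they passed it through their WT level.

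Among the 12, grd-3, grd-10 and grd-13 are neighbours in the WBcel235 annotation. They were chosen after their values were seen. The abundant genes grd-10 (F09D12.1) and grd-13 (W05E7.3) had nearly the same values in each library. In WT replicates 1, 2 and 3 grd-10 was at 181, 169 and 149 FPKM and in the mutant at 189, 191 and 190 (log2 difference 0.19, 95% interval 0.02 to 0.37, adjusted p = 0.176). For grd-13 the WT values were 181, 162 and 149 FPKM and the mutant values 189, 189 and 191 (log2 difference 0.21, adjusted p = 0.149). The neighbour grd-3 (W05E7.1) was at 129, 110 and 90.7 FPKM in WT and 160, 162 and 134 in the mutant (log2 difference 0.47, 95% interval 0.13 to 0.81, adjusted p = 0.109). WT replicate 1 was the highest WT library in all 3 and WT replicate 3 the lowest.

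The ground-like gene grl-21 (ZC168.5), expressed in the epidermis, had the same order of WT libraries. It was at 174, 137 and 116 FPKM in WT replicates 1, 2 and 3 and at 190, 183 and 197 in the mutant (log2 difference 0.44, 95% interval 0.09 to 0.78, adjusted p = 0.135). The abundant grl-4 was at 203, 199 and 190 FPKM in WT and 220, 220 and 240 in the mutant (log2 difference 0.20, 95% interval 0.08 to 0.32, adjusted p = 0.0761). For grl-6 (K10C2.5) the WT values were 61.4, 51.2 and 39.5 FPKM and the mutant values 67.0, 65.0 and 73.6 (log2 difference 0.45, adjusted p = 0.159). On the log2(FPKM + 1) scale the WT libraries were spread over 0.58 for grl-21 and 0.62 for grl-6, which is more than the difference between the groups.

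Of the members that were not called, grl-17 (C56A3.1) had the largest difference. It was at 1.02, 1.19 and 2.27 FPKM in WT and at 4.04, 3.38 and 5.79 in the mutant, about 10.9 to 23.8 and 35.8 to 57.6 reads (log2 difference 1.12, 95% interval 0.42 to 1.82, adjusted p = 0.0793). Of its exon bases 14.2% overlap the non-coding gene C56A3.14 and 8.79% C56A3.12, both on the opposite strand. At the levels of C56A3.14 its overlap would hold 28.5, 28.5 and 7.1 reads in WT replicates 1, 2 and 3 and 21.4, 42.8 and 71.3 in the mutant. That of C56A3.12 would hold 6.8 reads in each WT library and 6.8 to 20.4 in the mutant. For C56A3.14 the 28.5 reads in WT replicates 1 and 2 are more than the about 10.9 and 11.9 of all grl-17 exons. Likewise the 71.3 in mutant replicate 3 are more than the about 57.6 there. So in these libraries the estimate, made without steps, overstates what the overlap could lend to grl-17. The log2 differences of these partners were 1.09 and 0.80 (adjusted p = 0.374 and 0.271), and without strand their reads and those of grl-17 cannot be told apart. The next was grl-27 (F40C5.3), at 30.5, 31.8 and 19.7 FPKM in WT and 14.8, 8.69 and 17.6 in the mutant (log2 difference -0.97, 95% interval -1.68 to -0.26, adjusted p = 0.116). The groundhog gene grd-7 (F46H5.6) was at 0.881, 0.577 and 0.649 FPKM in WT and 2.23, 2.13 and 1.37 in the mutant (log2 difference 0.76, 95% interval 0.16 to 1.37, adjusted p = 0.140). These are about 5.9 to 9.6 and 13.9 to 24.1 reads. The 24 exon bases that grd-7 shares with F46H5.2 on the opposite strand would hold 8.5 to 9.6 reads in WT and 9.5 to 10.4 in the mutant at that gene's level, and the reads of the pair cannot be told apart there. In WT replicate 2 the 8.5 reads are more than the about 5.9 of all grd-7 exons, so the estimate is too high there. It also shares 147 bases (10.7%) with the non-coding gene F46H5.10 on the opposite strand. At that gene's level they would hold 18.9 reads in WT replicate 3, where grd-7 held about 7.0 in all. They would hold 1.6 in mutant replicate 3 and 0 in the other libraries. In grl-17, grl-27 and grd-7 the groups did not overlap, and the adjusted p was above 0.05.

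**Figure D4:**
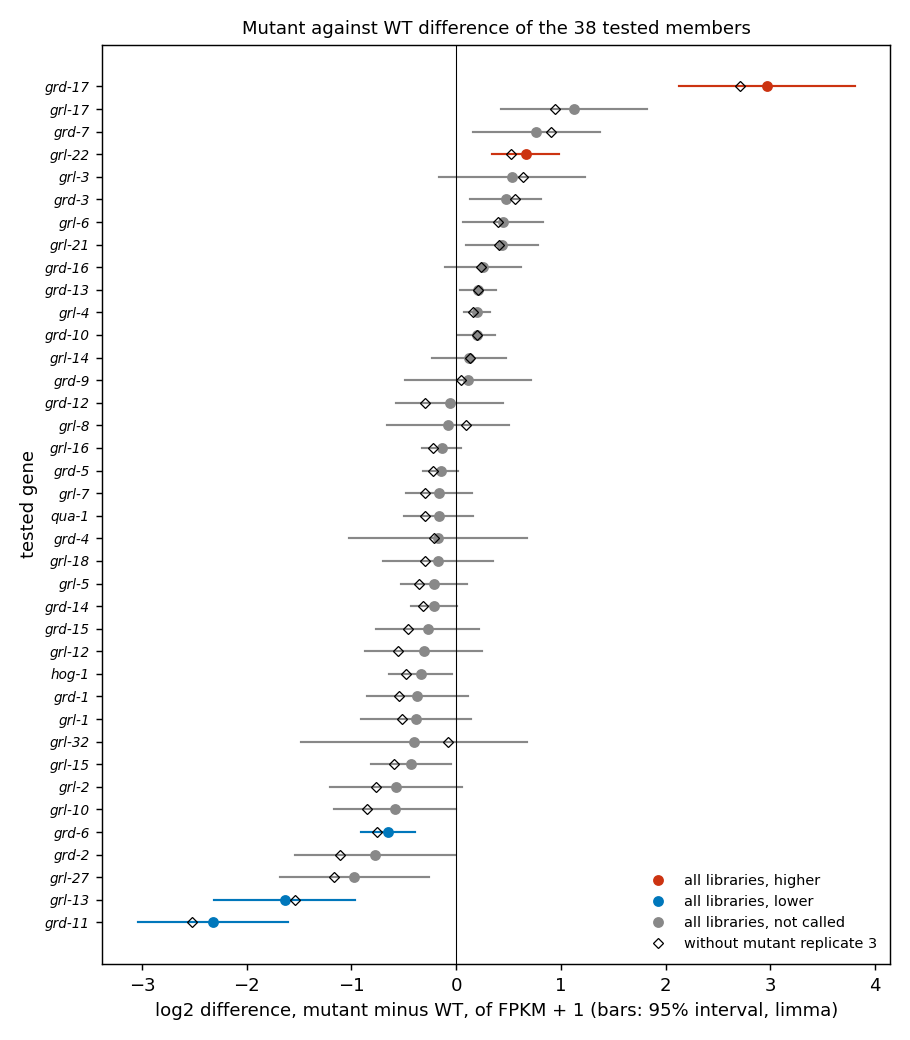
Log2 difference of mutant minus WT (x axis, on FPKM + 1) for the 38 tested members (y axis), with filled circles and 95% intervals from limma over all libraries and open diamonds without mutant replicate 3. Red marks the genes called higher, blue those called lower and grey those not called. Among genes left of 0 most diamonds lie further left than the circles, as for grd-2 and grl-10.

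Neither ground-like gene known from socket glia was called. The ground-like gene grl-2 (T16G1.8), expressed in socket glia and in the excretory duct and pore, was at 8.92, 13.6 and 15.6 FPKM in WT and 7.18, 6.62 and 10.7 in the mutant (log2 difference -0.57, 95% interval -1.20 to 0.05, adjusted p = 0.250). The groups overlapped. At the level of T16G1.9, on the opposite strand, the shared exon bases would hold 29.9 to 34.8 of its 66.3 to 155 reads. The inner labial socket gene grl-18 (T05C3.4) was at 5.23, 6.65 and 6.24 FPKM in WT and 5.83, 3.76 and 6.40 in the mutant (log2 difference -0.17, 95% interval -0.70 to 0.35, adjusted p = 0.682). All 9 genes of the glial marker list were above 0, with a summed level of 378 to 415 FPKM in WT and 393 to 406 in the mutant, and of the 8 tested 1 fell (vap-1).

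The 13 members under the filter lay on few reads. They were grd-8 and 12 ground-like genes (grl-9, grl-11, grl-19, grl-20, grl-23, grl-24, grl-25, grl-26, grl-28, grl-29, grl-30 and grl-31). For example, steps gave grl-11 (ZK512.9) 5, 1 and 3 reads in WT replicates 1, 2 and 3 and 0, 1 and 0 in the mutant. With no filter on low values, 0 of the 13 passed limma, with adjusted p from 0.0635 (grl-20, log2 difference 0.83) to 0.9996 (grl-9). The pseudogene grl-32 (T24A6.21) reached 96.1, 61.8 and 32.7 FPKM in WT and 51.8, 58.3 and 27.6 in the mutant. Its steps gave 15, 9 and 5 reads in WT and 8, 9 and 4 in the mutant. The exon length of 180 nt would instead give 46.0 to 138 reads in WT and 36.8 to 82.8 in the mutant, so the 2 estimates disagree. By the steps its high FPKM rests on a small number of reads (log2 difference -0.40, limma adjusted p = 0.641).

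Other genes of hedgehog-related biology moved as follows, with 3.06% of all tested features lower and 3.34% higher as above. Of 9 tested warthog genes, another family of hedgehog-related secreted proteins, 3 fell and 0 rose (median log2 difference -0.51). By limma 0 warthog genes were higher at an unadjusted p under 0.05 as well, and 6 were lower. Of the 38 tested members 10 were higher and 8 lower on that measure. Over the 17058 tested features 1901 were higher and 2016 lower. The largest fall was wrt-8, to 15.5 ± 6.94 FPKM (SD, n = 3) in the mutant, and wrt-2 and wrt-4 also fell (log2 differences -1.24 and -1.11, adjusted p = 0.0260 and 0.0461). Of 30 tested patched-related and sterol-sensing genes 1 fell and 1 rose (median log2 difference -0.17). They were che-14, which acts in apical secretion (log2 difference -1.63, adjusted p = 0.0108), and ptr-22 (log2 difference 1.15, adjusted p = 0.0328). Of 47 tested molting and apical matrix genes 4 fell and 2 rose (median log2 difference -0.08). This list shares 2 genes with the patched-related one, and che-14 is counted as a fall in both. The astacin protease genes of this list went both ways, nas-36 from 71.0 to 33.8 FPKM (adjusted p = 0.0147) and nas-38 from 60.9 to 113 FPKM (adjusted p = 0.00861). The protease inhibitor gene bli-5 fell from 68.7 to 38.4 FPKM (adjusted p = 0.0127). Without WT replicate 2, as without either of mutant replicates 1 and 2, 0 warthog genes were called. Without mutant replicate 3 there were 5 warthog, 10 patched-related and 11 molting genes called.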

How the data were processed

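RNA of 3 WT and 3 blmp-1(tm548) samples of whole larvae was sequenced from TruSeq libraries, per the labels' protocols, and groups came from the titles. A single table, deposited by the authors, holds an FPKM value per feature and library. Per the submitters' processing notes, tools included TopHat2 2.0.7, Cuffdiff and Cufflinks 2.0.2. The sources used here do not state the build, annotation, strand setting or any removal of duplicates, so no coordinates are printed. Symbols came from RefSeq and exon lengths and overlaps from the Ensembl annotation of WBcel235 (44063 of 45343 features matched, all 51 members among them). Protein and promoter sequences were not used here, and motifs were not searched.

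FPKM values are not counts. Features with a mean of at least 1 FPKM were set to log2(FPKM + 1). In R 4.3.3, limma 3.58.1 fitted the group without covariates, with the prior variance following a trend, and p-values of the 17058 features were adjusted by Benjamini-Hochberg. The fit was also run on simulated reads, drawn independently for each gene and library. Deviations shared by many genes of a library, and compression of high values, were not simulated. The replicate number was not used as a block in the main fit. Alternatives were other pseudocounts, filters, scaling, variance settings, library weights, the replicate number as a block and left-out libraries.

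Depth was estimated from 228 low single-isoform genes of 1000 to 4000 nt whose values lay on whole multiples of a unit within 0.03 of it. Reads of members came from such steps within 0.05 of a unit, up to 60 reads, or from exon length. They are estimates with no interval. Reads on shared bases came from the FPKM of the partner and the number of shared bases, not from steps. For a short partner they may be too high, as the exon-length estimate for grl-32 was above its steps.

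Members and gene lists were chosen with earlier results of these data known. Named genes were the called members, the 5 most abundant, the Hog-domain members, the 5 largest differences not called, grl-2, grl-18 and grl-21, and up to 4 called genes of each other list. Further members were added after their values were seen.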

Additional observations from a re-analysis of the deposited data

How the results depend on the processing

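The number of members that fell was 3, and it was 1 with a minimum mean of 5 FPKM, 15 with library weights and 1 with the replicate number as a block. The number that rose was 2, and it was 1 with no intensity trend and 10 with library weights. With a single library left out, 0 to 11 members fell and 1 to 3 rose. Without replicate 1, 2 or 3 of both groups, 0, 0 and 3 fell and 0, 0 and 1 rose. Over all features the count of 1092 became 4117 with library weights (2112 lower and 2005 higher). It was 369 to 1332 with a single library left out (177 to 712 lower and 192 to 620 higher), and 298, 106 and 651 without replicate 1, 2 or 3 of both groups (117, 54 and 316 lower, 181, 52 and 335 higher). With library weights 8 warthog, 19 patched-related and 21 molting genes were called. With a single library left out these counts were 0 to 5, 0 to 10 and 1 to 11. Without replicate 1, 2 or 3 of both groups they were 0, 0 and 3 for the warthog genes, 1, 0 and 2 for the patched-related genes and 0, 0 and 3 for the molting genes. With no filter, and with a minimum mean of 5 FPKM, 1 patched-related gene was called. The member median was between -0.27 and -0.07 in all 17 alternatives. The cause of these changes was not tested, beyond the fewer libraries or genes that a setting holds.

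Whether replicate numbers pair the samples cannot be told from these values. Deviations of same-numbered libraries from their group means correlated at 0.133, -0.0352 and 0.0697 for numbers 1, 2 and 3. Those of differently numbered libraries correlated at -0.138 to 0.0565. With the replicate block, 504 features rose and 425 fell. Among the members grd-11 then fell (limma adjusted p = 0.0231), and grd-17 and grd-3 rose.

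Depth limits the 13 members below 1 FPKM and the low groups of grl-13 and grd-17, which hold at most 2 reads per library.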
